A study of Mus musculus with 6 samples.

Results

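The respiratory chain of mitochondria is built from proteins of 2 genomes, and its genes were followed here in the epidermis of E18.5 mouse embryos. The mitochondrial set holds genes whose symbol begins with mt-Nd, mt-Co, mt-Cytb or mt-Atp. The nuclear set holds genes named Nduf, Sdha to Sdhd, Uqcr, Cox4i, Cox5, Cox6, Cox7, Cox8 or Atp5, without pseudogene symbols. Of 30386 genes in the table, 106 carried such a name (13 mitochondrial and 93 nuclear), and 81 reached the minimum mean of 10 CPM (counts scaled by the library total, as deposited) over the 6 libraries. These 81 members were 6 mitochondrial and 75 nuclear genes among 7464 genes tested. Just inside the minimum lay Ndufaf2 at 14.8 and Ndufaf4 at 20.7 CPM, and just outside it mt-Nd6 at 9.68 and Cox6a2 at 9.49 CPM.

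The study asks, by its title, about p63 isoforms and epidermal homeostasis in AEC syndrome. Epidermis was taken from back skin of E18.5 embryos, freed from dermis with Dispase and dispersed with Accutase. Wild-type embryos (WT) gave 3 libraries and embryos of the genotype labelled p63alphaKO gave 3 libraries. How that allele was made, and in which cells it acts, was not given in the sources used here. Transcripts were measured by 3' digital gene expression (3'DGE), which counts reads at the 3' ends of messenger RNAs. The libraries held 2564407 to 4474764 reads in listed genes, so 10 CPM stood for 25.7 to 44.8 reads. The labels do not say that the libraries of a group came from separate embryos, so p-values measure only the spread between these libraries, which may be technical. The Trp63 gene, which encodes p63, was counted at 74.3 ± 11.9 CPM in the WT libraries and 142 ± 5.15 CPM in the p63alphaKO libraries (SD, n = 3 each), and since the part removed is not known, this does not check the labels.

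Markers of keratinocytes, the main cells of epidermis, summed to 115100 to 121600 CPM in the WT libraries and 111900 to 119500 CPM in the p63alphaKO libraries, and 12 of 12 were tested. Of these, the basal keratin gene Krt15 was called lower (log2 fold change -1.80, limma adjusted p = 0.0016) and Trp63 higher (0.93, limma adjusted p = 0.019). Markers of cells that lie outside the epidermis also moved with genotype. Of 11 tested fibroblast markers 10 were called lower in p63alphaKO. Marker sums, here and below, take in the untested markers of a list too. Over 14 fibroblast markers the sum was 2511 to 5451 CPM in the WT libraries and 486.8 to 850.3 CPM in p63alphaKO. Of 10 tested skeletal muscle markers 7 were called lower, and 20 muscle markers summed to 499.6 to 3277 CPM against 67.8 to 132.5 CPM. Of 4 tested erythroid markers 3 were called lower, and 8 erythroid markers summed to 1903 to 3441 CPM against 559 to 1769 CPM. Muscle is rich in mitochondria, and the part of these cells in the respiratory chain values below was not tested. In bulk libraries, fewer cells of a type and less RNA per cell cannot be told apart.

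Complexes I to IV pass electrons from NADH and succinate to oxygen, complexes I, III and IV pump protons out of the mitochondrial matrix, and complex V, the ATP synthase, uses the returning protons to make ATP. Mitochondrial DNA encodes core subunits of complexes I, III, IV and V, while complex II is wholly nuclear. The mitochondrial genes are transcribed as long precursors from either strand and then processed, so their levels are not independent of each other. The nuclear subunits are made in the cytosol and imported, and the promoters of many are known to be bound by NRF1, GABPA and YY1. In skin, keratinocytes rely strongly on glycolysis, and respiration is known to take part in their differentiation.

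The genome also holds nuclear copies of mitochondrial DNA, whose sequence can match that of the mitochondrial genes. A run of 7 unprocessed pseudogenes lies on chromosome 1 between 24611535 and 24616197 (mm10, minus strand, 4663 bases), with parts that match genes from mt-Co1 to mt-Nd4. The 3' ends of 3 mitochondrial genes are shown beside their closest annotated copies, because they range from identical to distinct. Sequences are from GENCODE M21 transcripts on mm10, 5′ to 3′ on the gene's own strand, and capitals mark positions where gene and copy differ.
mt-Co3, chrM:9300-9389, plus strand: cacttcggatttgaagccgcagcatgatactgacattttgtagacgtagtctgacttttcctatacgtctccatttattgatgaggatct
Gm28437, chr1:24613189-24613278, minus strand: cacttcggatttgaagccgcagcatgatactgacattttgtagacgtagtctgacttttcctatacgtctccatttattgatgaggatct
mt-Nd2, chrM:4862-4951, plus strand: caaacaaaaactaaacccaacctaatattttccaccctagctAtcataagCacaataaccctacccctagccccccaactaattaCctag
Gm13339, chr2:22590024-22590113, minus strand: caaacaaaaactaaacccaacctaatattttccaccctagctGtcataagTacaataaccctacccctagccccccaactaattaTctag
mt-Cytb, chrM:15198-15287, plus strand: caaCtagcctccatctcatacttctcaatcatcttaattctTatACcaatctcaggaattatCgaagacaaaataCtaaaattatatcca
Gm11410, chr4:80005042-80005131, plus strand: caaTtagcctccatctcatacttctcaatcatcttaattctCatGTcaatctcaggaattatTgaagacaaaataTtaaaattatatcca
Over these 90 bases mt-Co3 and its copy had 0 mismatches, mt-Nd2 and its copy 3, and mt-Cytb and its copy 6.

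The 13 mitochondrial genes split into high and near-empty ones. The 6 members had means of 691 CPM (mt-Nd5) to 6532 CPM (mt-Nd4). Per kilobase of transcript the order was mt-Nd4 (4740.2 CPM), mt-Nd2 (3171), mt-Cytb (3103), mt-Nd1 (2544), mt-Co1 (598) and mt-Nd5 (379), although 3'DGE counts need not grow with length. By contrast mt-Co2, mt-Atp6, mt-Co3 and mt-Nd3 had means of 4.02, 3.64, 2.18 and 1.81 CPM. The gene for ATP synthase subunit 8, mt-Atp8, had 0.165 CPM, and mt-Nd4l was at 0 in all 6 libraries, where 3 reads would be 0.670 to 1.17 CPM. Such limits cover counting error only.

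Among the near-empty genes, mt-Co2, mt-Atp6, mt-Co3, mt-Nd3 and mt-Nd4l had 98% to 100% of their 50-base stretches letter for letter in an annotated nuclear gene. For mt-Nd1 and mt-Cytb this share was 0%, for mt-Nd5 7.6% and for mt-Nd2 8.2%, although 52.5% of the stretches in the last 150 bases of mt-Nd2 were shared. In mt-Nd4 62.2% of stretches were shared, but 0% of those in its last 150 bases. Shared sequence and level did not go together in every gene. In mt-Co1 100% of the stretches in the last 150 bases were shared at a mean of 925 CPM, and mt-Nd2 had a mean of 3292 CPM. The low genes mt-Atp8 and mt-Nd6 had 0% shared. On the same strand, mt-Atp8 (chrM 7766 to 7969) overlaps mt-Atp6 (chrM 7927 to 8607). Likewise mt-Nd4l (chrM 9877 to 10173) overlaps mt-Nd4 (chrM 10167 to 11544). Where the 3' ends of their messenger RNAs lie was not tested, so a low 3'DGE count need not mean little RNA. How reads that match several places were counted was not given in the sources used here, and its part in these levels was not tested. Of 8 nuclear copies looked up by symbol, 0 were among the listed genes, so no counts of theirs could be read.

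**Figure D1:**
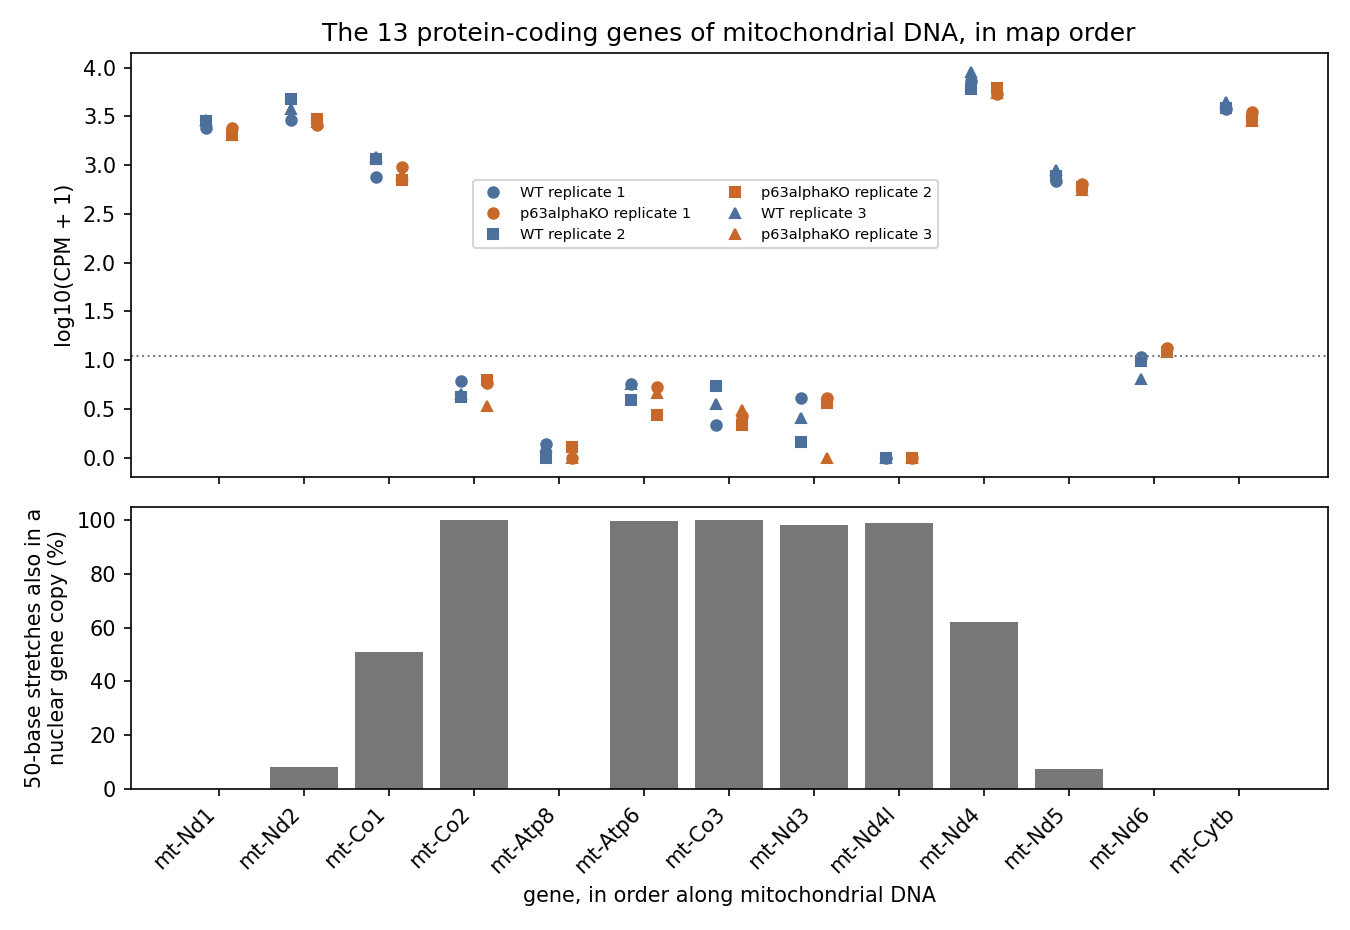
Top, log10(CPM + 1) of the 13 protein-coding genes of mitochondrial DNA in each library, WT in blue and p63alphaKO in orange, with the dotted line at the minimum of 10 CPM. Bottom, the percent of each gene's 50-base stretches that also occur in an annotated nuclear gene, which is 98% or more for 5 of the 7 genes under the line.

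The 6 mitochondrial members were all lower on average in p63alphaKO, by similar amounts, and none passed the test. All 6 stayed below 0 under each of the 20 alternatives run. Their log2 fold changes (p63alphaKO over WT, on log2(CPM + 1)) ran from -0.44 to -0.32 with a median of -0.38, against -0.085 over all tested genes. By limma with Benjamini-Hochberg adjustment, 123 genes (1.65%) passed an adjusted p of 0.05, 35 higher (0.469%) and 88 lower (1.18%), with 0 of the 81 members among them. At an unadjusted p under 0.05 the test held 1166 genes (15.6%) and 11 members, of which 4 were mitochondrial and 7 nuclear. The mitochondrial count of 4 was 0 with TMM factors, without the trend, with edgeR, with DESeq2 and without p63alphaKO replicate 3. Of those 11 members 10 were lower, a direction with 9.59% of all genes, and 1 was higher (6.03%). By edgeR on reads recovered from the CPM values 82 genes (1.1%) and 0 members were called, with 6 members at an unadjusted p under 0.05 (15.1% of all genes).

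Cytochrome b, the mitochondrial subunit of complex III, is encoded by mt-Cytb (chrM 14145 to 15288). It stood at 3792, 3889 and 4411 CPM in WT replicates 1, 2 and 3 and at 3506, 2881 and 2821 CPM in p63alphaKO replicates 1, 2 and 3. Every p63alphaKO library lay below every WT library (log2 fold change -0.40, SE 0.15, limma adjusted p = 0.215). The proton-pumping subunit gene mt-Nd5 (chrM 11742 to 13565) also showed no overlap, with 692, 765 and 897 CPM in the WT libraries and 644, 594 and 555 CPM in the p63alphaKO libraries. Its log2 fold change was -0.39 (SE 0.16, limma adjusted p = 0.237), and it overlaps mt-Nd6 on the other strand. Over all tested genes 13.4% had all p63alphaKO libraries below all WT libraries, and 14 of the 81 members did (17.3%), 2 mitochondrial and 12 nuclear. In the other direction it was 7.6% of all tested genes and 0 members.

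For the other 4 mitochondrial members the groups overlapped. Complex I subunit 4, mt-Nd4, was the highest member, at 7319.6, 5992 and 8947 CPM in the WT libraries and 5373, 6139 and 5421 CPM in the p63alphaKO libraries. WT replicate 2 sat below p63alphaKO replicate 2 (log2 fold change -0.38, SE 0.17, limma adjusted p = 0.297). For mt-Nd2 the values were 2864, 4794 and 3795 CPM in the WT libraries and 2587, 2977 and 2733 CPM in the p63alphaKO libraries, with WT replicate 1 inside the p63alphaKO range (log2 fold change -0.44, limma adjusted p = 0.253). In mt-Nd1 WT replicate 1 (2387 CPM) was below p63alphaKO replicate 1 (2417 CPM), and the log2 fold change was -0.32 (limma adjusted p = 0.328). The catalytic subunit of cytochrome c oxidase, mt-Co1, had 758, 1149 and 1205 CPM in the WT libraries and 954, 701 and 781 CPM in the p63alphaKO libraries (log2 fold change -0.34, limma adjusted p = 0.432). Leaving out 1 library moved mt-Nd4 to between -0.52 and -0.23, mt-Nd2 to between -0.63 and -0.26, and mt-Co1 to between -0.55 and -0.21. The weakest values came without WT replicate 3 in mt-Nd4 and mt-Co1 and without WT replicate 2 in mt-Nd2. The gene mt-Nd6, the only protein-coding gene on the other strand of mitochondrial DNA, was under the minimum, at 9.74, 8.71 and 5.35 CPM in the WT libraries and at 12.14, 11.07 and 11.04 CPM in the p63alphaKO libraries. All its p63alphaKO values thus lay above the WT ones, opposite to the 6 members, at a level below the minimum of the test.

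Summed, the mitochondrial members made up 1.78%, 1.94% and 2.21% of counts in WT and 1.55%, 1.53% and 1.44% in p63alphaKO. The groups did not overlap (1.98% ± 0.218 against 1.51% ± 0.0608, SD, n = 3 each), and WT replicate 3 was highest. WT replicate 2 had the largest muscle marker sum and the highest nuclear share. The part of muscle in either share was not tested. The nuclear members summed to 1.03%, 1.21% and 1.04% of counts in WT and to 1.06%, 1.05% and 0.902% in p63alphaKO, and these ranges overlapped (1.09% ± 0.0999 against 1.002% ± 0.0864). Without WT replicate 2 the nuclear difference shrank from -0.090 to -0.033 percentage points, and without p63alphaKO replicate 3 to -0.041.

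The ratio of the mitochondrial to the nuclear sum does not depend on the library total. It was 1.73, 1.61 and 2.13 in WT and 1.46, 1.47 and 1.59 in p63alphaKO (1.82 ± 0.269 against 1.51 ± 0.0733, SD, n = 3 each). The ranges did not overlap, but WT replicate 2 and p63alphaKO replicate 3 nearly met. Without WT replicate 3 the difference in the ratio went from -0.32 to -0.16. No p is given for these sums, since the members were chosen with results known.

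**Figure D2:**
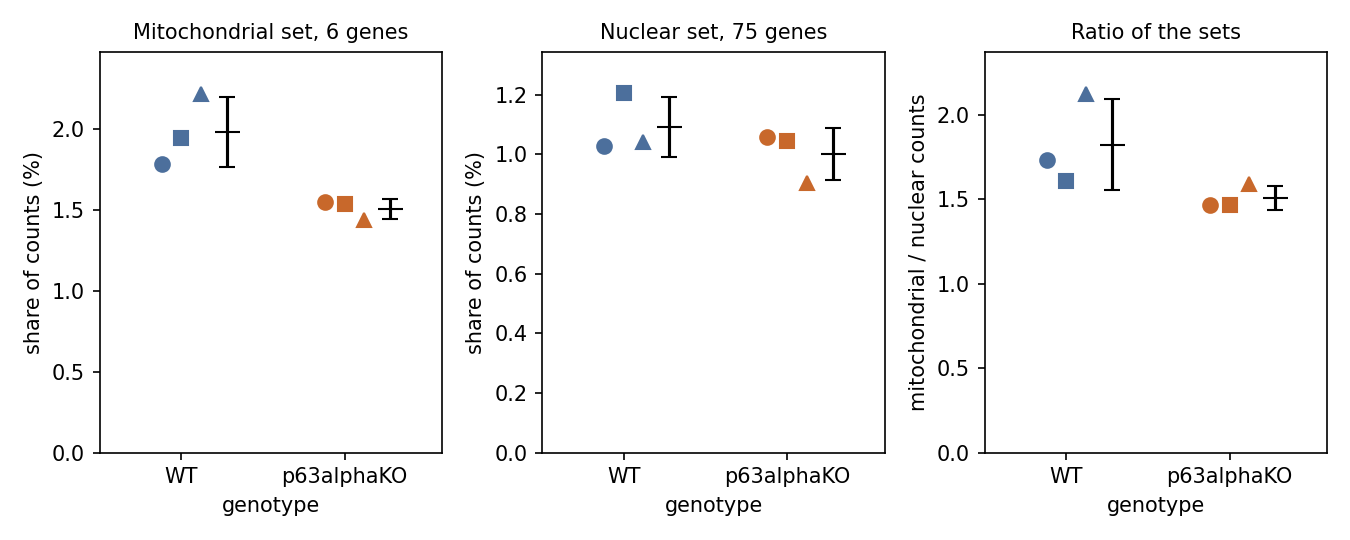
Share of counts in the 6 mitochondrial genes (left), in the 75 nuclear genes (middle) and their ratio (right) for each library, with the mean and SD of 3 libraries as bars and circles, squares and triangles for replicates 1, 2 and 3. The mitochondrial shares of p63alphaKO (1.44% to 1.55%) all lie below those of WT (1.78% to 2.21%), while the nuclear shares overlap.

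Among nuclear members the median log2 fold change was -0.15, with 58 of 75 below 0 and a range from -0.75 to 0.61. With TMM factors the median was -0.074 (49 of 75 below 0) and with DESeq2 -0.068 (47 of 75), and 45 of 75 were below 0 without p63alphaKO replicate 3. With the deposited scaling 59.8% of all tested genes were below 0, and their median was -0.085. That median was -0.0064 with TMM factors, -0.0016 with DESeq2 and -0.026 without p63alphaKO replicate 3. The nuclear median lay -0.068 from it with the deposited scaling, -0.067 with TMM factors and -0.067 with DESeq2. The distance was -0.070 without p63alphaKO replicate 3 and -0.0086 without WT replicate 2. By complex, the medians were -0.49 for complex II (3 of 3 below 0), -0.20 for complex I (27 of 35) and -0.16 for complex III (7 of 8). They were -0.096 for complex IV (8 of 11) and -0.051 for complex V (9 of 13). After scaling by TMM factors the median of all genes was -0.0064 and that of complex V turned to 0.029, and complex IV turned to 0.0066 with DESeq2 factors. Without p63alphaKO replicate 3 the medians of complexes IV and V were 0.037 and 0.040, and without WT replicate 2 that of complex V was 0.053. In 3 settings complex V lay below all genes. It was at -0.098 with quantile normalization, against -0.0062 for all genes. Without WT replicate 3 it was at -0.090 against -0.047, and with a minimum mean of 50 CPM at -0.034 against -0.024. Complexes I and III went to -0.11 and -0.068 with DESeq2, and to -0.12 and -0.060 without WT replicate 2. Without WT replicate 1 complex III was at -0.27. The median of all nuclear members was -0.085 without WT replicate 2 and -0.096 without p63alphaKO replicate 3. These differences between complexes were not tested.

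**Figure D3:**
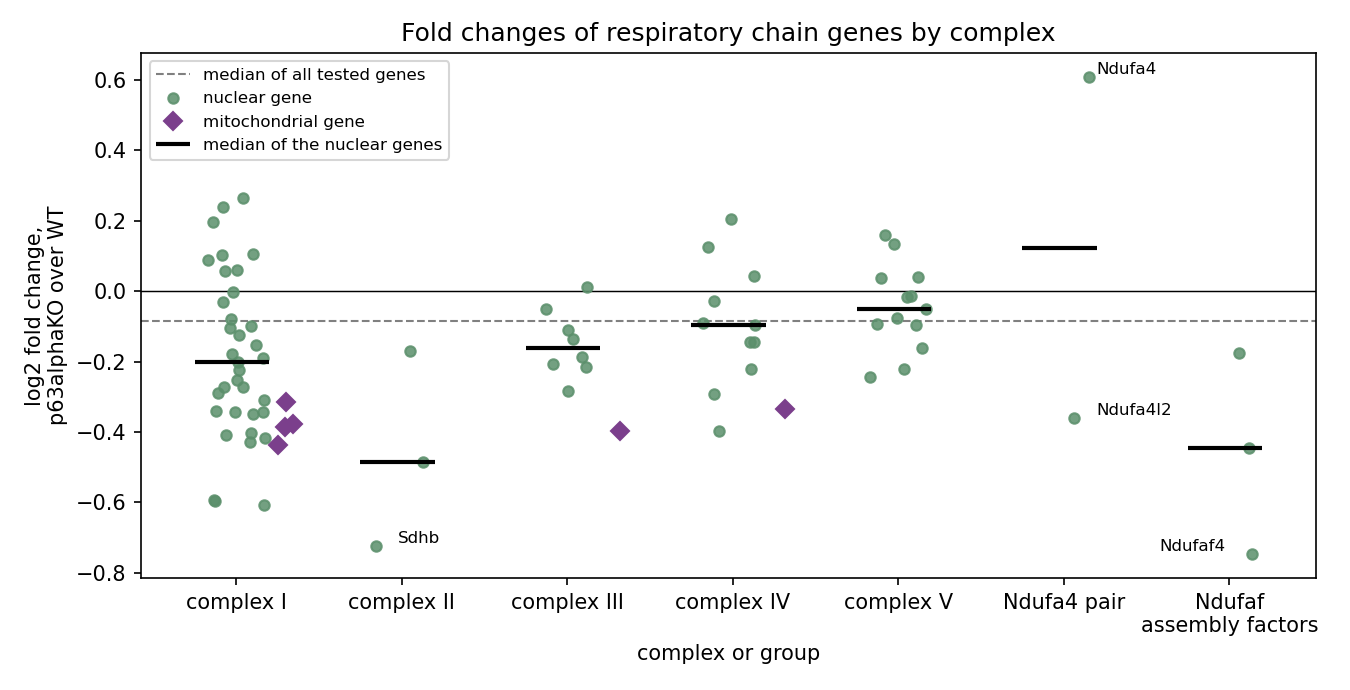
Log2 fold change (p63alphaKO over WT) of each of the 81 members by complex, green circles for nuclear and purple diamonds for mitochondrial genes, with black bars for the median of the nuclear genes and a dashed line at the median of all tested genes (-0.085). The medians of complexes II and I (-0.49 and -0.20) lie below that line and the median of complex V (-0.051) above it. Complex V turns to 0.029 with TMM factors, against -0.0064 for all genes. Complex IV turns to 0.0066 with DESeq2, against -0.0016 for all genes. Complex V lies below all genes with quantile normalization (-0.098 against -0.0062) and without WT replicate 3 (-0.090 against -0.047).

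Complex II, succinate dehydrogenase, oxidises succinate and also serves in the citric acid cycle. Its iron-sulfur subunit gene Sdhb (chr4 140961203 to 140979193, plus strand) had the smallest p of all members. Sdhb was at 107.9, 109.0 and 138.5 CPM in the WT libraries and at 73.7, 69.3 and 69.5 CPM in the p63alphaKO libraries. The p63alphaKO libraries lay close together and all below WT (118.5 ± 17.4 against 70.8 ± 2.48 CPM, SD, n = 3 each). Its log2 fold change was -0.72 (SE 0.19, limma adjusted p = 0.0652). DESeq2 on recovered reads, which called 317 genes (4.25%, and 14.8% at an unadjusted p under 0.05), gave -0.64 with a DESeq2 adjusted p of 0.0425, its only call among the members. The adjusted p over all alternatives ran from 0.0425 to 0.232.

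The flavoprotein subunit gene Sdha was at 87.3, 76.4 and 79.0 CPM in the WT libraries and 86.7, 71.1 and 60.0 CPM in the p63alphaKO libraries, with overlap (log2 fold change -0.17, limma adjusted p = 0.751). Sdhc, a membrane anchor, was at 56.5, 66.5 and 56.4 CPM against 64.4, 44.6 and 26.3 CPM (log2 fold change -0.49, limma adjusted p = 0.438). Leaving out 1 library moved Sdha to between -0.30 and -0.041 and Sdhc to between -0.78 and -0.15. Sdhc spread widely among the p63alphaKO libraries, and the median of the complex went to -0.75 without p63alphaKO replicate 1 and to -0.15 without p63alphaKO replicate 3. The other anchor gene, Sdhd, was under the minimum at a mean of 2.20 CPM.

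Complex I takes electrons from NADH. Its 28 accessory genes had a median of -0.21 with 23 below 0, and its 7 nuclear core genes a median of -0.098 with 4 below 0. With TMM factors these medians were -0.13 and -0.018, and with DESeq2 -0.12 and -0.0042. Without p63alphaKO replicate 3 the core median was -0.055, and without WT replicate 2 the accessory one was -0.14. The smallest p among them belonged to Ndufc1 (chr3 51404677 to 51408988, minus strand), an accessory membrane subunit, at 171, 184 and 218 CPM in the WT libraries and 136, 132 and 110.1 CPM in the p63alphaKO libraries. Its groups did not overlap (log2 fold change -0.60, SE 0.18, limma adjusted p = 0.102). Ndufa13 (chr8 69894180 to 69902558, minus strand), an accessory subunit also known as GRIM-19, was at 106.8, 116 and 87.5 CPM against 66.9, 76.6 and 60.8 CPM. It too showed no overlap (log2 fold change -0.59, SE 0.20, limma adjusted p = 0.142), and its exons overlap Tssk6 on the other strand, so its value is uncertain if counting ignored strand. Ndufs8 (chr19 3908863 to 3912774, minus strand), a core iron-sulfur subunit, was at 41.3, 54.9 and 61.4 CPM against 39.0, 32.0 and 30.7 CPM (log2 fold change -0.61, SE 0.23, limma adjusted p = 0.215).

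Other core subunits did not share one sign, although 6 of the 7 core genes were below 0 without WT replicate 1. Their median was then -0.10, against -0.14 for all genes. Ndufv1, which binds NADH, was lower without overlap, at 82.6, 104.7 and 107.0 CPM against 79.9, 79.5 and 82.3 CPM (log2 fold change -0.27, limma adjusted p = 0.534). Ndufs1, an iron-sulfur subunit, had 24.2, 40.4 and 49.4 CPM in the WT libraries and 45.7, 42.2 and 38.2 CPM in the p63alphaKO libraries, and its log2 fold change of 0.20 turned to -0.090 without WT replicate 1. In Ndufs1 WT replicate 1, the shallowest library, was the lowest of all 6, and exons of this gene overlap genes on the other strand. Of the 12 nuclear members without overlap, 6 were among the 35 of complex I, a share near the 13.4% of all tested genes. They were Ndufc1, Ndufa13, Ndufs8 and Ndufv1, with Ndufa10 and Ndufa2 named after their values were seen.

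The Ndufaf genes encode factors that assemble complex I. Ndufaf4 (chr4 24898083 to 24905001, plus strand) had the lowest fold change of all members, at 19.1, 33.1 and 26.8 CPM in the WT libraries and 18.4, 13.7 and 13.1 CPM in the p63alphaKO libraries. The groups did not overlap, but WT replicate 1 and p63alphaKO replicate 1 nearly met (log2 fold change -0.75, SE 0.30, limma adjusted p = 0.240). Ndufaf8 and Ndufaf2 had log2 fold changes of -0.44 (limma adjusted p = 0.512) and -0.17 (limma adjusted p = 0.856), and the latter turned to 0.017 with quantile normalization. Ndufaf8 went to -0.12 without p63alphaKO replicate 3, and Ndufaf2 to -0.051 without WT replicate 1 and -0.065 without p63alphaKO replicate 2. The median of the 3 genes was -0.44, or -0.17 without p63alphaKO replicate 3. A further 5 Ndufaf genes were under the minimum.

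Complex III passes electrons from ubiquinol to cytochrome c. Uqcrc2, a core protein, was at 111.8, 112.5 and 126.9 CPM in the WT libraries and 104.2, 92.0 and 91.9 CPM in the p63alphaKO libraries, without overlap (log2 fold change -0.28, limma adjusted p = 0.475), and it overlaps Pdzd9 on the other strand. Uqcrq, a small subunit, had a log2 fold change of -0.21 (limma adjusted p = 0.652), which shrank to -0.040 without WT replicate 2. The core protein gene Uqcrc1 and the Rieske protein gene Uqcrfs1 had -0.11 and -0.22, and they turned to 0.011 without WT replicate 3 and to 0.062 without p63alphaKO replicate 3, respectively. The nuclear genes of this complex thus lay nearer to 0 than mt-Cytb at -0.40.

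Complex IV reduces oxygen. Cox5b (chr1 36691449 to 36693681, plus strand), a zinc-binding subunit, was at 145.3, 147.4 and 130.7 CPM in the WT libraries and 116.9, 115.3 and 90.1 CPM in the p63alphaKO libraries, without overlap (log2 fold change -0.40, SE 0.18, limma adjusted p = 0.304). Cox7a2 (chr9 79755361 to 79759878, minus strand) was at 333, 401 and 334 CPM against 318, 304 and 290.2 CPM, also without overlap (log2 fold change -0.22, limma adjusted p = 0.551). Cox5a and Cox4i1, subunits of the early assembly, had 0.21 (limma adjusted p = 0.703) and 0.042 (limma adjusted p = 0.949), and Cox4i1 turned to -0.12 without WT replicate 1 and to -0.019 without p63alphaKO replicate 1. Cox6a1 and Cox8a, the forms found in most tissues, had -0.028 and -0.14, and Cox6a1 turned to 0.052 with TMM factors. Without WT replicate 2 they turned to 0.096 and 0.076, and Cox8a turned to 0.10 without p63alphaKO replicate 3. Cox7c, named for its copies after its values were seen, shared 53% of its 50-base stretches with other annotated genes, and 98% of those in its last 150 bases.

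Complex IV also has isoforms known from heart and skeletal muscle. Cox6a2 was at 14.4, 24.6 and 2.83 CPM in the WT libraries and 3.11, 9.61 and 2.39 CPM in the p63alphaKO libraries. Cox8b was at 0.78, 8.93 and 1.89 CPM against 0, 1.16 and 0 CPM, and Cox7a1 at 1.56, 3.35 and 2.20 CPM against 0 in all 3 p63alphaKO libraries. All 3 isoform genes were highest in WT replicate 2, which also had the largest muscle marker sum (3277 CPM). WT replicates 1 and 3 had close muscle marker sums (517.9 and 499.6 CPM), but Cox6a2 at 14.4 and 2.83 CPM. Cox8b and Cox7a1 were instead higher in WT replicate 3 than in WT replicate 1. The part of muscle in these values was not tested. Their means were below the minimum of the test.

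In complex V, Atp5a1 and Atp5b encode the alpha and beta subunits of the catalytic head. Atp5a1 was at 503, 581 and 461 CPM in the WT libraries and 507, 534 and 483 CPM in the p63alphaKO libraries (log2 fold change -0.014, limma adjusted p = 0.983), and it turned to 0.067 with TMM factors, to 0.077 without WT replicate 2 and to 0.022 without p63alphaKO replicate 3. Exons of Atp5a1, Atp5j, Cox4i1, Cox5a and Ndufaf2 overlap a gene on the other strand, with the same uncertainty as for Ndufa13. Atp5b was at 329, 343 and 275 CPM against 372, 367 and 319 CPM (log2 fold change 0.16, limma adjusted p = 0.692). Atp5j and Atp5h, of the stalk, had -0.24 (limma adjusted p = 0.636) and -0.16 (limma adjusted p = 0.697). The summed share was 0.309% ± 0.0329 in WT and 0.306% ± 0.0224 in p63alphaKO, against 0.320% ± 0.0267 and 0.275% ± 0.0198 for nuclear complex I genes. Whether the 2 complexes differ was not tested.

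Ndufa4, named as a complex I gene but known as a subunit of complex IV, and its paralog Ndufa4l2, known as a hypoxia-induced gene, had opposite signs. Ndufa4 (chr6 11900292 to 11907497, minus strand) was at 99.0, 55.4 and 47.5 CPM in the WT libraries and 104.7, 82.7 and 108.6 CPM in the p63alphaKO libraries. WT replicate 1 stood among the p63alphaKO values, well above the other 2 WT libraries (log2 fold change 0.61, SE 0.25, limma adjusted p = 0.257). Without WT replicate 1 the log2 fold change was 0.92 with a limma adjusted p of 0.0391, and over all alternatives the adjusted p ran to 0.605. Ndufa4 was the only member with a higher mean and an unadjusted p under 0.05, a class that held 6.03% of all tested genes. Ndufa4l2 (chr10 127514967 to 127517154, plus strand) was at 311, 219.9 and 224 CPM against 179, 236 and 171 CPM (log2 fold change -0.36, limma adjusted p = 0.393). It overlaps Shmt2 on the other strand.

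**Figure D4:**
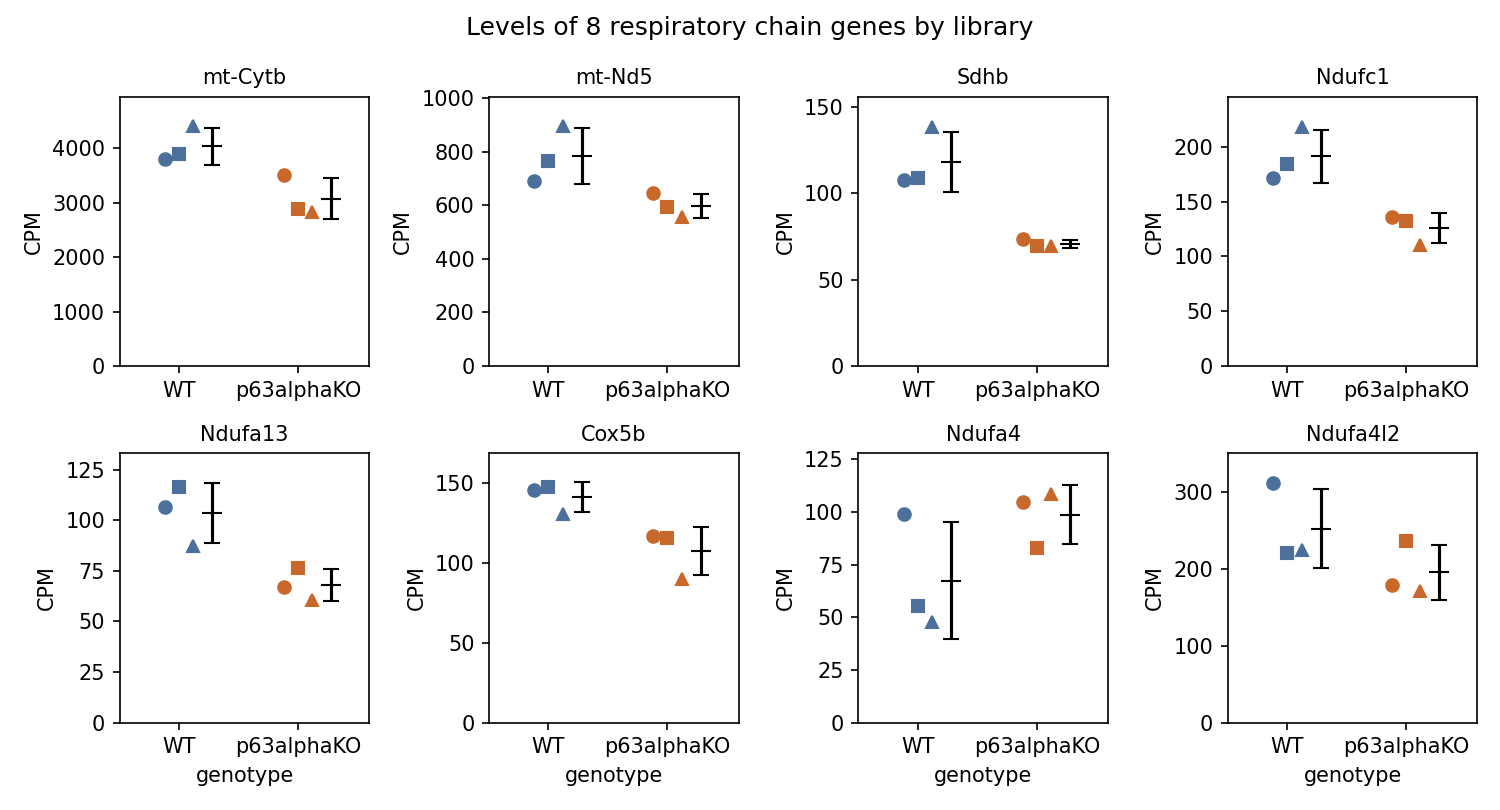
CPM of 8 members in each library, with mean and SD of 3 libraries as bars and circles, squares and triangles for replicates 1, 2 and 3. In Sdhb the p63alphaKO libraries (69.3 to 73.7 CPM) lie below all WT libraries (107.9 to 138.5 CPM), and in Ndufa4 WT replicate 1 (99.0 CPM) lies among the p63alphaKO libraries.

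Other mitochondrial genes were read from lists chosen by function, and 0 of their tested members were called, against 1.65% of all tested genes. Their counts below 0 stand beside 59.8% of all tested genes. Assembly factors outside the naming rule had 18 of 21 below 0 and a median of -0.30, with Coa3 (complex IV assembly) at 29.2 ± 2.87 CPM in the WT libraries and 19.3 ± 3.05 CPM in the p63alphaKO libraries. Mitochondrial ribosomal proteins, which translate the mitochondrial messages, had 50 of 68 below 0 and a median of -0.22. Cytosolic ribosomal proteins had 44 of 78 below 0 and a median of -0.019. Citric acid cycle genes (11 of 17, median -0.10) and import genes and chaperones (17 of 23, median -0.099) lay near the median of all genes.

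Carriers and uncouplers had 8 of 10 below 0 and a median of -0.16. Among them the mitochondrial creatine kinase gene Ckmt1 was at 131.7 ± 17.5 CPM in the WT libraries and 81.2 ± 8.08 CPM in the p63alphaKO libraries (log2 fold change -0.69, SE 0.19, limma adjusted p = 0.0731). Genes of mitochondrial DNA expression had 5 of 9 below 0 and a median of -0.081, with Fastk at -1.28 (limma adjusted p = 0.108). Regulators of mitochondrial biogenesis had 3 of 7 below 0 and a median of 0.097, among them Esrra at -0.84 (limma adjusted p = 0.340). Electron carriers and coenzyme Q genes had 8 of 10 below 0 and a median of -0.20, with Gpd2, which feeds electrons from glycerol 3-phosphate, at 0.55 (limma adjusted p = 0.279).

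Promoters from RefSeq (GRCm38.p6, windows around the transcription start) were found for 63 of the 75 nuclear members. The NRF1 letters, GCGCA and GCGC parted by any base, stood in 15 of them (23.8%), against 12.8% of tested genes and 5.2% of all genes with a promoter, on either strand. The YY1 letters AAGATGGCG stood in 8 (12.7%, against 4.3% and 1.6%) and the GABPA letters CCGGAAGT in 5 (7.9%, against 10.3% and 4.3%). The median log2 fold change was -0.11 for the 15 members with the NRF1 letters and -0.18 for the 48 without, and that difference was not tested. A match of letters is a description and not a binding site.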

How the data were processed

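Expression was measured by 3'DGE in 6 libraries, and the submitters' processing notes name STAR, HTSeq and mm10. Versions, annotation and strand setting were not given in the sources used here, and the labels name different RNA kits. The values deposited by the authors are CPM. Each was a whole multiple of what 1 read is worth, within 0.0055 CPM, for 100% of values, which gave the reads recovered for edgeR 4.0.16 and DESeq2 1.42.0.

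The two-sided limma-trend test, in limma 3.58.1 under R 4.3.3, used log2(CPM + 1) with genotype only, over 7464 genes at or above a mean of 10 CPM, and Benjamini-Hochberg adjustment. Fold changes on this scale understate low genes. The steps were tested on simulated data, whose changed genes had larger fold changes than any mitochondrial member. That test therefore does not show whether changes as small as theirs would be called. Members, lists and tests were chosen with earlier results of these data known. Named were all mitochondrial members, any called member, the 3 smallest p per complex, core subunits and tissue isoforms, and up to 2 genes per other list. The result for 1 gene that this rule takes in is not reported here. Copies and positions came from GENCODE M21 on mm10, which holds 30271 of 30386 gene IDs. Alternatives were other pseudocounts, minimums, scalings, tools, a replicate block and leaving out each library.

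Of the other marker lists, 0 of 3 tested melanocyte genes and 0 of 2 tested neural and Schwann cell genes were called, and no gene of the endothelial, adipocyte, immune and Merkel cell lists reached the test. Sums ran, in the WT libraries and then in p63alphaKO, from 188.6 to 318.3 and 334.6 to 471.2 CPM (melanocyte), 98.3 to 107.2 and 51.6 to 92.9 (neural and Schwann cell), 8.48 to 40.1 and 2.39 to 4.95 (endothelial), 26.8 to 64.5 and 10.4 to 20.4 (adipocyte), 19.7 to 38.4 and 12.2 to 21.5 (immune) and 3.77 to 16.1 and 4.96 to 10.2 (Merkel cell).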

Additional observations from a re-analysis of the deposited data

How the results depend on the processing

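The count of 123 called genes became 256 with a minimum mean of 1 CPM, 36 with 50 CPM, 41 without the trend, 317 with DESeq2, and 37 to 186 when a library was left out (186 without WT replicate 1, and 46, 67 and 37 without p63alphaKO replicates 1, 2 and 3). The nuclear count of 0 became 1 with DESeq2 (Sdhb), and 0 to 1 when a library was left out (Ndufa4). The mitochondrial count was 0 throughout, with 0 to 5 at an unadjusted p under 0.05. No pairing by replicate number was seen (correlations of deviations -0.023, 0.066 and -0.11, against -0.13 to 0.15 for other pairs). With 3 libraries per group such correlations cannot settle whether libraries were paired. The replicate block gave 127 called genes and 0 members. Over all settings the mitochondrial median lay -0.39 to -0.23 from that of all genes, and the nuclear median -0.15 to -0.0086. When a library was left out, the medians ran from -0.46 to -0.28 and from -0.20 to -0.085, the mitochondrial share difference from -0.57 to -0.36 points, the nuclear one from -0.12 to -0.033, and the ratio difference from -0.42 to -0.16. Of 654 values for 33 genes, 633 kept sign and call and 19 changed sign. Atp5a1 turned to 0.067 (TMM), 0.032 (upper quartile), 0.058 (edgeR) and 0.073 (DESeq2), and Cox6a1 to 0.052, 0.018, 0.044 and 0.058. Ndufaf2 turned to 0.017 with quantile normalization. When a library was left out, signs also turned for Atp5a1 (-0.090 to 0.077), Cox6a1 (-0.11 to 0.096), Cox8a (-0.32 to 0.10), Cox4i1 (-0.12 to 0.21), Uqcrc1 (-0.26 to 0.011), Uqcrfs1 (-0.36 to 0.062) and Ndufs1 (-0.090 to 0.41). Among further genes, values moved by over 1.5 times in Cox5a (0.055 to 0.43), Atp5b (0.065 to 0.23), Ndufa4l2 (-0.50 to -0.20), Cox7a2 (-0.27 to -0.13), Atp5h (-0.20 to -0.11) and Atp5j (-0.33 to -0.16). The cause was not tested. A mean of 10 CPM rests on 25.7 to 44.8 reads, which limits the precision of genes near or under it.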
